A study of Homo sapiens with 8 samples.

Results

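The imprinted 14q32 cluster is the stretch of chromosome 14 between *DLK1* and *DIO3* that holds many miRNA genes. It was taken here as every gene that GENCODE release 44 types as miRNA on chr14:101280000-101560000 of GRCh37, which gave 53 of the 3049 miRNA genes of the annotation. MBD-seq captures sheared DNA with the methyl-CpG-binding domain of MBD2, so that methylated fragments pile up into peaks, and the data are the peak lists of 8 NB cell lines, which are established tumor cultures. CHP-902R, IMR-32, LAN-2 (LA-N-2 in the sample labels) and N206 are labelled *MYCN* amplified (MNA). The lines labelled not amplified, here called *MYCN* single copy, are SK-N-AS, SJNB-1, SH-SY5Y and CLB-GA. No agent is named in the labels of this assay. With 1 sample per line, different lines stand in as replicates of a *MYCN* group. A gene was counted in a line when a peak overlapped by at least 1 bp its precursor or the bases between 1500 bp before and 1000 bp past the precursor start, called the window here.

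In an imprinted region, the copies inherited from the mother and the father carry different methylation and are used differently. At 14q32 the long noncoding RNAs *MEG3*, *MEG8* and *MEG9*, with the miRNAs and snoRNAs processed from the same strand, are known to come from the maternal copy, and the protein-coding genes *DLK1*, *RTL1* and *DIO3* mainly from the paternal copy. Many of these miRNAs are abundant in brain. MBD-seq does not tell the parental copies apart, so a peak at these genes gives methylated DNA without saying on which copy.

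The peaks most shared between lines lay at the miRNAs that are transcribed opposite to *RTL1*, a retrotransposon-derived gene. The mature products below are those of the genes with a peak in most lines, with the seed (bases 2 to 8) in capitals, as RefSeq gives them in the GRCh38.p14 set. Their seeds were all different.
miR-431-5p: uGUCUUGCaggccgucaugca
miR-433-3p: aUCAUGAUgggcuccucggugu
miR-127-3p: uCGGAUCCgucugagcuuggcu
miR-432-5p: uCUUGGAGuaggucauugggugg
miR-136-5p: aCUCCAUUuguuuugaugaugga

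Of the 53 genes, 50 had an entry in RefSeq, with 91 mature sequences and 79 distinct seeds. Seeds shared between genes numbered 11 and took in 18 genes. The following sequences are shown because genes with the same seed differed in their peaks. *MIR381* had a window peak in 3 lines and *MIR300*, with the same seed, in none. *MIR487B* had it in 3 lines and *MIR487A* in none, and *MIR154*, which shares the seed of the other arm of *MIR487A*, had it in 3 lines.
miR-381-3p: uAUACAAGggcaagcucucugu
miR-300: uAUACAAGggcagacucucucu
miR-487b-5p: gUGGUUAUcccuguccuguucg
miR-487a-5p: gUGGUUAUcccugcuguguucg
miR-487a-3p: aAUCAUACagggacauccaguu
miR-154-3p: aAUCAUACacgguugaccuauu

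DNA under peaks shared between lines is given on the plus strand of GRCh37, from the most shared region and from a region over precursors of the large downstream block, with each CpG, the unit that the capture domain binds when methylated, in capitals. The first 2 segments lie within the coding exon of *RTL1*, on its opposite strand, and the third in an intron of *MEG9*. The segment beside *MIR431*, chr14:101347445-101347684, starts 0.101 kb downstream of the precursor start, holds 11 CpGs and lay wholly under a peak in 6 lines (CHP-902R, IMR-32, N206, CLB-GA, SH-SY5Y and SJNB-1).
MIR431 segment: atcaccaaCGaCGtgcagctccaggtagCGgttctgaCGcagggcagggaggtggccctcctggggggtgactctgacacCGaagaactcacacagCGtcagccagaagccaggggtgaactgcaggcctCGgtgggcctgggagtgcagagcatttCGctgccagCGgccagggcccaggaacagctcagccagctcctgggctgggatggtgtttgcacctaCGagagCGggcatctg
The segment beside *MIR127*, chr14:101349612-101349851, holds 16 CpGs and lay under a peak in 6 lines, with SK-N-AS in place of N206.
MIR127 segment: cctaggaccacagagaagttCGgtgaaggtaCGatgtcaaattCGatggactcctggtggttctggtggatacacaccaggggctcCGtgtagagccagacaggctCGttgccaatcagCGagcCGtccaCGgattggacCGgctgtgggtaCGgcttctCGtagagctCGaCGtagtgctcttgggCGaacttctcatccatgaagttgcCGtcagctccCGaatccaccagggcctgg
The segment that runs into the *MIR487B* precursor, chr14:101512573-101512812, holds 12 CpGs and lay under a peak in CHP-902R, CLB-GA and SK-N-AS.
MIR487B segment: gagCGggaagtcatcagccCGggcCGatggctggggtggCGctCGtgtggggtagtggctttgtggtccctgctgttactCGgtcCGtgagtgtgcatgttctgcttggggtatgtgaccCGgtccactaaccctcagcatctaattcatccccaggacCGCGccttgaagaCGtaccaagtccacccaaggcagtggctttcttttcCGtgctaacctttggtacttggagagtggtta

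The lists held 70816 (SJNB-1) to 112412 peaks (LAN-2). They carry no read counts, so the depth of each list is unknown and the absence of a peak shows only that none was called. The p-values below measure the spread between lines.

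In the 280 kb of the locus, 97 peaks were listed over all lines. CLB-GA had 22 peaks, SH-SY5Y 18, CHP-902R 16, SK-N-AS 14, IMR-32 12, SJNB-1 10, N206 5 and LAN-2 none. LAN-2, with the longest list of the 8, thus had the fewest peaks here, and its list was also empty in the 50 kb on each side. Merging overlapping peaks of all lines gave 48 regions in the locus, of which 23 had a peak in 1 line, 12 in at least 3 lines and 3 in at least 5 lines. The most shared region had a peak in 7 lines. The authors' score rises as the p-value of a peak falls. Its median at the locus was above that of the whole list in SH-SY5Y (74.2 against 72.2), SJNB-1 (72.8 against 65.6) and SK-N-AS (66.9 against 66.4) and below it in the other 4 lines with peaks. High scores were few, with 7 of the 97 peaks (7.22%) at 100 or more. In each of the 7 lines with peaks, this share was below that of the whole list, which ran from 11.5% to 18.3%. The highest score, 149.2, belonged to a CLB-GA peak 41.4 kb downstream of the *MEG3* start that lay over no precursor.

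**Figure D1:**
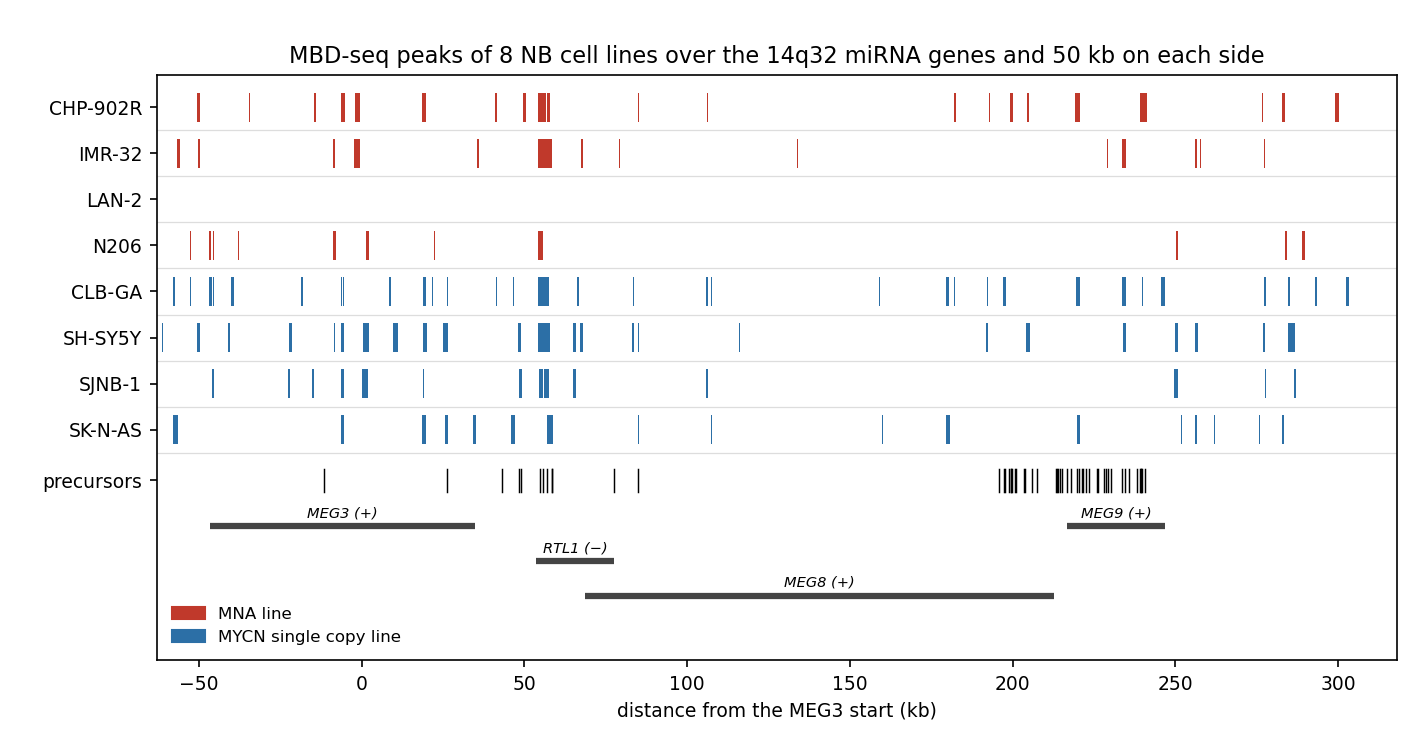
Position of each MBD-seq peak (bars, at their true width) in the 8 lines, as distance in kb from the *MEG3* start, with the 53 precursors as ticks and 4 genes as bars with their strand. A common block of peaks stands at about the position of *RTL1* in every line but LAN-2, the track of LAN-2 is empty, and N206 shows no peak over the right-hand group of precursors.

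Of the 53 miRNA genes, 38 (71.7%) had a window peak in at least 1 line, against 42.6% of all 3049 miRNA genes. A window peak in at least 4 lines was found for 6 genes (11.3%), against 8.27% of all miRNA genes. These were *MIR127* (7 lines), *MIR431*, *MIR433*, *MIR432* and *MIR136* (6 lines each) and *MIR370* (4 lines). All but *MIR370* were touched by the same merged region, so the share rests on few regions. With the precursor itself counted, 24 genes (45.3%) had a peak in at least 1 line, against 16% of all miRNA genes. The precursors of *MIR431* (6 lines), *MIR433* and *MIR127* (5 lines each) had a peak in at least 4 lines. This is 5.66% of the 53 genes, against 2.33% of all miRNA genes. No line had a window peak at 15 genes, the first 5 in genome order being *MIR2392*, *AL117190.1*, *MIR379*, *MIR495* and *AL132709.2*. Neighbouring windows overlap and 1 merged region touched up to 6 of them, so the genes are not independent observations. In all, 15 merged regions accounted for the window peaks and 10 of them lay over a precursor.

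**Figure D2:**
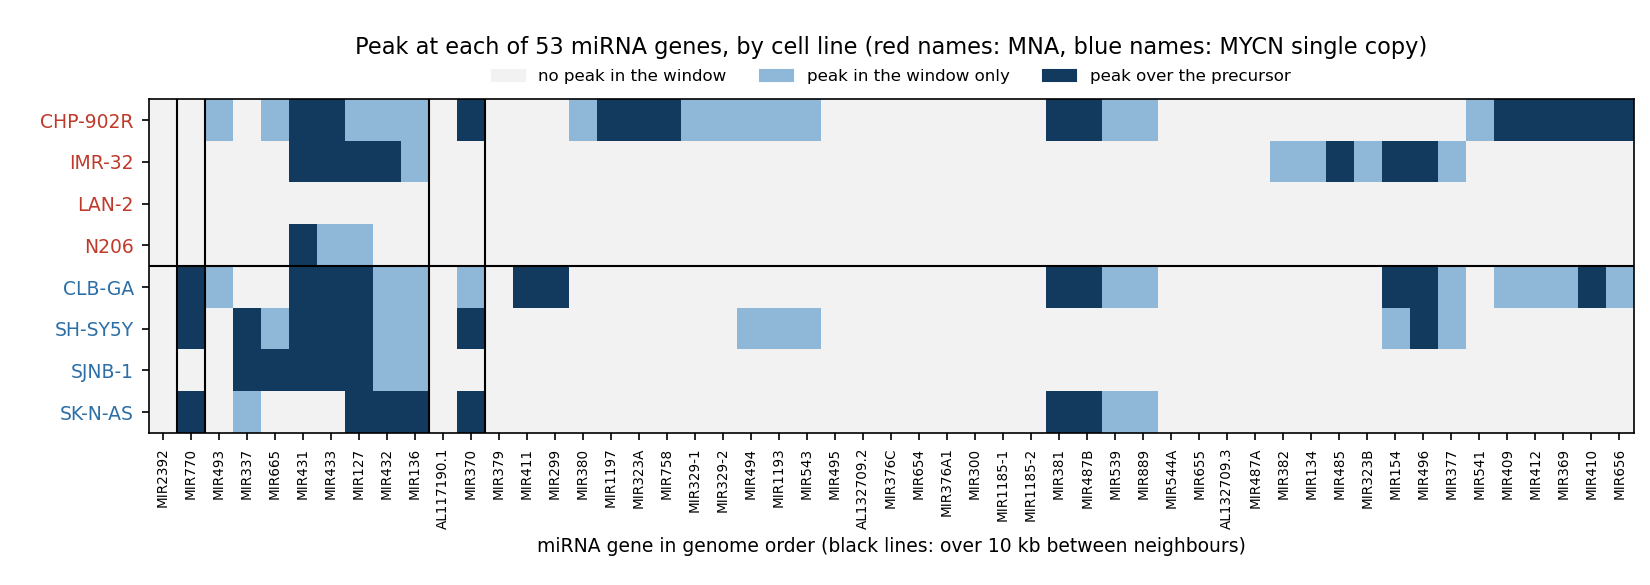
Peak status of the 53 miRNA genes (columns, in genome order) in each line (rows), with dark cells for a peak over the precursor and light blue cells for a peak in the window only. The columns from *MIR431* to *MIR136* are filled in most lines, LAN-2 has no filled cell, and N206 and SJNB-1 have none from *MIR379* to *MIR656*.

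The genes fell into blocks when a gap over 10 kb between neighbouring precursors was taken as a border. *MIR2392* and *MIR770*, both inside *MEG3*, stood alone. The block from *MIR493* to *MIR136* held 8 genes in 15.7 kb, all within *MIR493HG*, and each of the 8 had a window peak in some line. *AL117190.1* and *MIR370* formed a small block, and the block from *MIR379* to *MIR656* held 41 genes in 44.8 kb, mostly inside *MEG8* and *MEG9*. In that large block 28 genes had a window peak in some line, with a median of 1 line per gene, against a median of 6 lines in the *MIR493* to *MIR136* block.

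In the *MIR493* to *MIR136* block, 7 of the 8 genes had a window peak in CHP-902R, SH-SY5Y and SJNB-1, 6 in CLB-GA, 5 in IMR-32, 4 in SK-N-AS, 3 in N206 and none in LAN-2. The shared part of the block was a merged region at chr14:101346578-101351337, 4760 bp wide, with a peak in every line but LAN-2. It spans the precursors of *MIR431*, *MIR433*, *MIR127*, *MIR432* and *MIR136*, all within the coding exon of *RTL1* on the opposite strand. In mice, miR-127 and its neighbours are known to cut the transcript of *Rtl1*, to which they are complementary.

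The peaks in this region differed in extent. SH-SY5Y had a single peak of 3720 bp over *MIR431*, *MIR433* and *MIR127*, with a score above that of 90.2% of its list. CLB-GA had a peak of 3395 bp over the same precursors, above 84.3% of its list. IMR-32 had a peak of 2648 bp over *MIR431* and *MIR433* and another of 1627 bp over *MIR127* and *MIR432*, above 60.6% and 10.6% of its list. Thus the single copy lines SH-SY5Y and CLB-GA had the strongest peaks here by rank within their lists. CHP-902R had a peak of 2327 bp over *MIR431* and *MIR433* and one of 789 bp between *MIR127* and *MIR432*. SJNB-1 had a peak of 1285 bp over *MIR431* and *MIR433* and one of 1648 bp over *MIR127*. N206 had 1516 bp over *MIR431* only, and SK-N-AS 1942 bp over *MIR127*, *MIR432* and *MIR136* only, so that these lines held opposite ends of the region. With only peaks that scored 100 or more, *MIR431*, *MIR433*, *MIR127*, *MIR432* and *MIR136* each kept a window peak in 2 lines.

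At the upstream end of this block the pattern was sparser. *MIR493* had a window peak in CHP-902R and CLB-GA, and *MIR665* in CHP-902R, SH-SY5Y and SJNB-1. Only 70.7% of the 45 bp stretches in the *MIR493* window occur once in GRCh37, the lowest share of the 53 windows, and the other stretches match more than 1 place. *MIR337* had a window peak in SK-N-AS, SH-SY5Y and SJNB-1, over the precursor in SH-SY5Y and SJNB-1. *MIR370*, further downstream and within *MEG8*, had a window peak in CHP-902R, CLB-GA, SH-SY5Y and SK-N-AS. Its peaks were narrow, 347 to 441 bp where they lay over the precursor.

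In the *MIR379* to *MIR656* block, which holds neuronal miRNAs such as *MIR134*, known to limit the size of dendritic spines, 19 of the 41 genes had a window peak in CHP-902R and 14 in CLB-GA. SH-SY5Y had 6, IMR-32 7 and SK-N-AS 4. SJNB-1, N206 and LAN-2 had none, so that this block was empty in lines of both *MYCN* groups. Peaks covered 10.6% of the block in CHP-902R, 8.86% in CLB-GA and 4.90% in SH-SY5Y. The share was 3.81% for IMR-32 and 2.19% for SK-N-AS.

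No gene of this block had a window peak in more than 3 lines. A region over *MIR381* and *MIR487B* had a peak in CHP-902R, CLB-GA and SK-N-AS and also touched the windows of *MIR539* and *MIR889*. A region over *MIR154* and *MIR496* had a peak in IMR-32, CLB-GA and SH-SY5Y and touched the window of *MIR377*. CHP-902R had a peak of 2238 bp over *MIR409*, *MIR412*, *MIR369*, *MIR410* and *MIR656* at a score of 50.46, near the bottom of its list, and CLB-GA had 564 bp over *MIR410*. The other peaks over precursors were found in 1 line each. In CHP-902R 1 peak lay over *MIR1197*, *MIR323A* and *MIR758* and touched the windows of *MIR329-1* and *MIR329-2*, in CLB-GA over *MIR411* and *MIR299*, and in IMR-32 over *MIR485*, in the window of *MIR134*. *MIR494*, *MIR1193* and *MIR543* had a window peak in CHP-902R and SH-SY5Y. At the start of the block *MIR379* had none, and a stretch from *MIR495* to *MIR1185-2* that includes *MIR376C* and *MIR376A1* had none in any line.

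The comparison of MNA with single copy lines asks whether methylation at these genes goes with *MYCN* status, the main contrast between the lines. Within the MNA group, 27 genes had a window peak in CHP-902R, 12 in IMR-32, 3 in N206 and none in LAN-2. Within the single copy group, 22 had one in CLB-GA, 15 in SH-SY5Y, 10 in SK-N-AS and 7 in SJNB-1. The groups thus overlapped, with the line with most genes and the line with fewest both in the MNA group. The count of CHP-902R rested in part on peaks near the bottom of its list. Its peaks at scores of 50.39, 51.66 and 50.46 touched 3, 4 and 6 of the windows. Low peaks also stood in the counts of other lines. In IMR-32 a peak at 53.88 touched 4 windows. In CLB-GA a peak at 50.63 touched the window of *MIR770*, and in SH-SY5Y one at 53.35 that of *MIR337*. The full part of such peaks in the count of each line was not examined. The means were 10.5 ± 12.1 genes (SD, n = 4) in MNA and 13.5 ± 6.56 genes (SD, n = 4) in single copy lines, a difference that was smaller than the spread within either group (exact permutation test, two-sided, p = 0.686, where 4 lines against 4 cannot go below p = 0.0286). Without LAN-2 the difference changed direction to 0.5 genes more in MNA lines (exact permutation test, p = 0.971). With the same number of peaks from each list it was -7.25 genes (exact permutation test, p = 0.143).

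None of the 53 genes separated the *MYCN* groups, with a window peak in every line of one and no line of the other, a pattern found in 0.197% of all miRNA genes. In two-sided Fisher's exact tests per gene, 0 of the 53 had an unadjusted p under 0.05, and the adjusted p (Benjamini-Hochberg over all 3049 miRNA genes) was 1 for each. With 4 lines against 4, only a separating gene can go under 0.05 in Fisher's exact test, at p = 0.0286. With 0.197% of miRNA genes separating, even such a gene could not have passed the adjustment, so the adjusted p decides nothing. *MIR770*, hosted by *MEG3*, had a peak over its precursor in CLB-GA, SH-SY5Y and SK-N-AS and in no MNA line (Fisher's exact test, p = 0.143). *MIR337* had its window peaks in 3 single copy lines as well and in no MNA line (Fisher's exact test, p = 0.143). Both patterns rested in part on low peaks. The CLB-GA peak at *MIR770* scored 50.63, above 1.93% of its list, and the SH-SY5Y peak at *MIR337* 53.35, above 8.40%. Each gene kept a window peak in 2 lines with the same number of peaks from each list, and in 0 with scores of at least 100. *MIR770* and *MIR337* are 2 of 53 genes with peaks in at least 3 single copy lines and no MNA line, against 0.558% of all miRNA genes. The reverse pattern had no member, against 0.853% of all miRNA genes. *MIR770* would separate the groups without SJNB-1 and *MIR337* without CLB-GA. Each is the only single copy line without a window peak at that gene, so this restates the pattern and is no further evidence. The *MIR337* peaks were not 1 shared peak. That of SK-N-AS (chr14:101338160-101339450) reached only the upstream end of the window, apart from those of SH-SY5Y and SJNB-1. A CLB-GA peak (chr14:101338800-101339244) lay within the span of the SK-N-AS peak and ended short of the window.

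Peaks covered 5.68% of the locus in CHP-902R, 4.01% in IMR-32, 1.53% in N206 and 0% in LAN-2. In the single copy lines they covered 6.93% in SH-SY5Y, 5.66% in CLB-GA, 4.33% in SK-N-AS and 3.48% in SJNB-1. The ranges overlapped through CHP-902R and IMR-32. The mean was 2.81 ± 2.53% (SD, n = 4) in MNA and 5.10 ± 1.52% (SD, n = 4) in single copy lines, a difference of -2.30 percentage points that did not pass 0.05 (exact permutation test, two-sided, p = 0.2). When the same number of peaks, 70816, was taken from each list by score, the difference was -2.84 percentage points with p = 0.0286 (exact permutation test), the smallest p that the design allows. The call thus changed with the handling of list length.

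The locus was also compared with its own chromosome in each line. The rest of chromosome 14 was covered to between 1.06% (SJNB-1) and 1.91% (CHP-902R). In 7 of 8 lines the locus was covered more than the rest of the chromosome, and LAN-2 was the exception at 1.13 percentage points below it. The mean difference was 2.47 ± 2.15 percentage points (SD, n = 8; two-sided exact sign-flip permutation test, p = 0.0234). In N206 the difference was only 0.0360 percentage points. With peaks that scored 100 or more, the mean difference was 0.284 percentage points (p = 0.25), and against all autosomes it was 2.10 percentage points (p = 0.0703), both in the same exact permutation test and no longer past 0.05. The locus holds 1.56 CpGs per 100 bp, against 0.974 on chromosome 14 as a whole, and the part of this in the difference was not tested for the covered length.

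**Figure D3:**
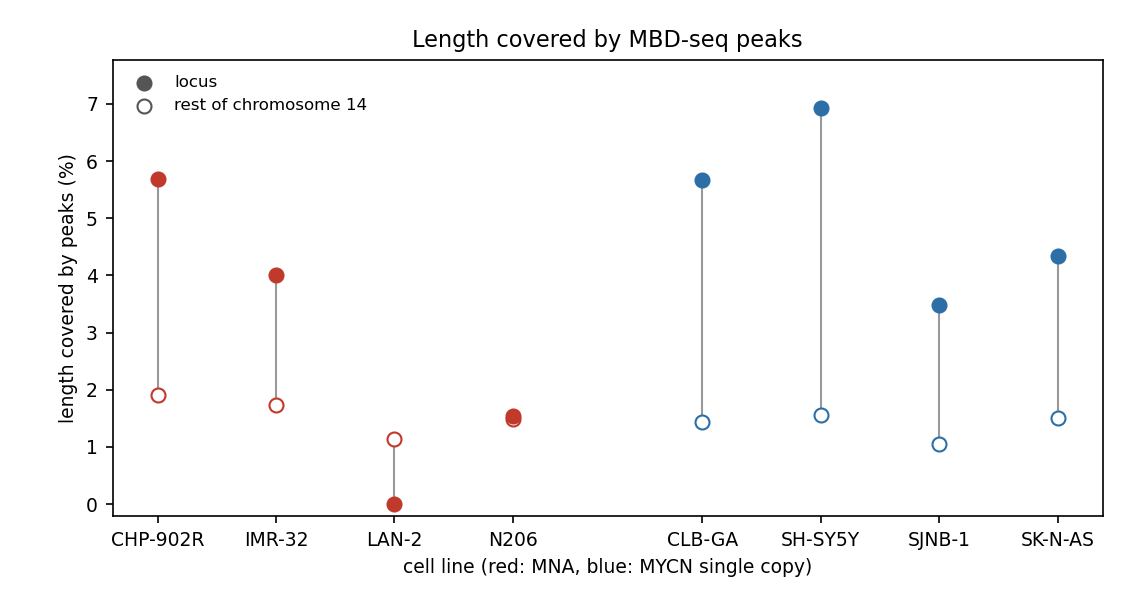
Percentage of length covered by peaks in the locus (filled points) and in the rest of chromosome 14 (open points) for each line, MNA lines in red and single copy lines in blue. The filled point lies above the open one in 7 lines, by 0.0360 points in N206, and falls to 0 in LAN-2.

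A further comparison set the 53 genes against all other miRNA genes of the same list. Of the 53, 50.9% had a window peak in CHP-902R, 41.5% in CLB-GA and 28.3% in SH-SY5Y. IMR-32 followed at 22.6%, SK-N-AS at 18.9%, SJNB-1 at 13.2%, N206 at 5.66% and LAN-2 at 0%. The other 2996 miRNA genes ranged only from 10.4% (CLB-GA) to 15.0% (LAN-2). The share at the locus was higher in 6 of 8 lines, by a mean of 10.3 ± 17.8 percentage points (SD, n = 8), a difference smaller than its own spread over the lines (exact sign-flip permutation test, two-sided, p = 0.148). For peaks over the precursor itself the mean difference was 8.00 ± 8.53 percentage points, higher in 6 of 8 lines (exact permutation test, p = 0.0391). The difference in window peaks depended on single lines. It was 13.9 ± 15.7 percentage points without LAN-2 (exact permutation test over 7 lines, p = 0.0469), 6.31 without CHP-902R and 7.28 without CLB-GA (p = 0.297 for both in the same exact test). With peaks that scored 100 or more it was 0.400 percentage points (exact permutation test, p = 0.812).

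**Figure D4:**
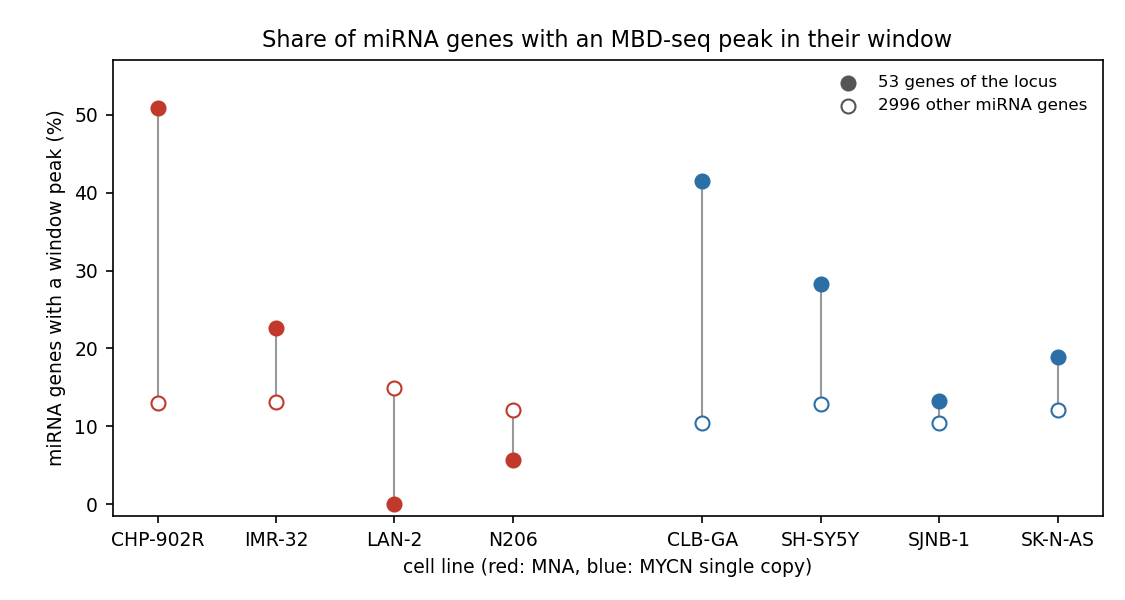
Percentage of miRNA genes with a peak in their window, for the 53 genes of the locus (filled points) and the 2996 other miRNA genes (open points), by line. The open points stay between 10.4% and 15.0%, while the filled points run from 0% in LAN-2 to 50.9% in CHP-902R.

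The windows at the locus are rich in CpG. Their median was 2.36 CpGs per 100 bp, with 1.28 the lowest, against 1.04 for other miRNA genes, and none of the 53 had under 1, a class that holds 1474 of the others. Among genes with over 2 CpGs per 100 bp, 76.9% of the 39 at the locus and 62.0% of the 624 others had a window peak in some line. Among those with 1 to 2, it was 57.1% of 14 and 61.1% of 898. When the other miRNA genes were weighted to the CpG content of the 53, the mean difference per line was 2.41 ± 17.4 percentage points and in favor of the locus in 4 of 8 lines (exact permutation test, p = 0.695). Within the locus, the 6 genes with a window peak in at least 4 lines had a median of 3.66 CpGs per 100 bp, the 32 genes with 1 to 3 lines 2.44 and the 15 with none 2.04. Across the 53 genes, Spearman's rho between CpG content and the number of lines was 0.474. This is a description only, since neighbouring genes share windows and peaks.

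The large miRNA cluster of chromosome 19, which is also imprinted, served as a counterpart. The stretch taken for it, from *MIR512-1* to *MIR373*, holds 49 miRNA genes, of which 6 (12.2%) had a window peak in some line and at most 3 in any line. Whether all of these genes are imprinted was not examined. The share at 14q32 was higher in 7 of 8 lines, with LAN-2 again the exception, by a mean of 20.6 ± 18.7 percentage points (two-sided exact sign-flip permutation test, p = 0.0156). This comparison was chosen after seeing the data. The windows of the chromosome 19 cluster have a median of 1.68 CpGs per 100 bp. The share of their 45 bp stretches that occur once in GRCh37 was not computed, so peaks missed for that reason cannot be told.

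Around the miRNAs, the genes of the imprinted domain differed among lines. Such a gene was counted when the window of any of its annotated starts had a peak. The number of starts differed, with 48 for *MEG8* and 1 for *RTL1*. *DLK1*, which codes for a transmembrane protein related to Notch ligands, had a window peak in CHP-902R, IMR-32 and all 4 single copy lines. At any start of *MEG3*, a peak was found in every line but LAN-2. In the window of its main start, at position 101292435, peaks were called in 4 lines. Those of CHP-902R and IMR-32 were centred at -1.26 and -1.44 kb from this start, upstream of it. Those of SJNB-1 and SH-SY5Y were centred at 1.00 and 1.34 kb, downstream of it, and did not overlap the upstream peaks. The MNA line N206 had a peak centred at 1.825 kb. It began past the window and fell in the same merged region as those of SJNB-1 and SH-SY5Y. *MEG8* had a window peak in CHP-902R, IMR-32, CLB-GA and SH-SY5Y, *MEG9* in CHP-902R, IMR-32, CLB-GA and SK-N-AS, and the start of *RTL1* in no line. Beyond them, *WDR25* and *DIO3OS* had a window peak in all 8 lines and *DIO3*, the enzyme that inactivates thyroid hormone, in every line but LAN-2. *BEGAIN* had it in CHP-902R and all 4 single copy lines (Fisher's exact test, p = 0.143). Over all annotated genes 55.6% had a window peak in some line and 0.197% separated the *MYCN* groups, while none of the listed neighbours did. Every adjusted p was 1, and at that share even a separating gene could not have passed the adjustment. *DLK1* separated the *MYCN* groups, towards the single copy lines, when the same number of peaks was taken from each list. The share of all genes that separate in that setting is not given here, so this call has no base rate beside it.

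Regions outside miRNA windows included the other 2 of the locus that were present in 5 lines. Their centres lay at -5.84 kb from the main *MEG3* start (chr14:101285995-101287190) and at 19.2 kb, within *MEG3* (chr14:101310813-101312399). Both were found in CHP-902R and the 4 single copy lines and in no other MNA line. No test of these regions and no share over other regions is given here. LAN-2 had no peak in the locus or its flanks, so no region or island here could separate towards the MNA lines. In the downstream flank, a region at chr14:101569086-101570285 also had a peak in 5 lines. These were CHP-902R, IMR-32, CLB-GA, SH-SY5Y and SJNB-1. Of 36 CpG islands found in the locus and its flanks, 22 had a peak in some line, 2 in at least 4 lines and none separated the groups. The islands in at least 4 lines both lay in the *MIR431* to *MIR136* region, the larger with 104 CpGs in 1901 bp and a peak in 7 lines.

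Between *MIR370* and *MIR379* lies a stretch of 82.7 kb with 51 snoRNA genes of the *SNORD112*, *SNORD113* and *SNORD114* families, small RNAs that are processed from the same host transcripts. A window peak was found at 5 of the 51, against 55.6% of all annotated genes. The shares are not alike, since each snoRNA gene has 1 annotated start and other genes counted at any of several. These were *SNORD113-7*, *SNORD113-8*, *SNORD114-24*, *SNORD114-25* and *SNORD114-26*, each in 1 or 2 lines, and they rested on 3 peaks, 1 each in SH-SY5Y, CLB-GA and SK-N-AS. This stretch holds 0.659 CpGs per 100 bp, against 2.59 from *MIR493* to *MIR136* and 2.17 from *MIR379* to *MIR656*. Peaks covered at most 1.72% of it (CLB-GA), and the peaks of CHP-902R (0.644%) and IMR-32 (0.479%) in it lay outside the snoRNA windows.

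The empty track of LAN-2 was part of a longer stretch without a peak, 848.49 kb from chr14:101173536-102022025. It takes in all 53 miRNA genes with *DLK1*, *MEG3*, *RTL1*, *MEG8* and *MEG9* and ends before *DIO3*. The other lines had 70 (CLB-GA), 54 (SH-SY5Y), 49 (CHP-902R), 43 (SJNB-1), 38 (IMR-32), 35 (SK-N-AS) and 30 peaks (N206) overlapping this stretch. Outside it the LAN-2 list was filled, with 45 peaks in the 1 Mb before and 53 in the 1 Mb after, within the range of the other lines (27 to 88 and 30 to 70). Of the 112387 stretches between neighbouring peaks in the LAN-2 list, this was number 173 by length, number 41 by the 13711 CpGs it holds and number 5 by the 314 peaks of other lines centred in it. LAN-2 also covered less of the rest of chromosome 14 (1.13%) than of all autosomes (2.22%), a ratio of 0.509 against 0.720 to 0.990 in the other lines, and the part of this in the empty stretch was not tested. The longest peak-free stretch that touched the locus in N206 was 194 kb, from within the *RTL1* region to beyond *MIR656*, and in the other 6 lines it was 51.2 to 94.9 kb.

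**Figure D5:**
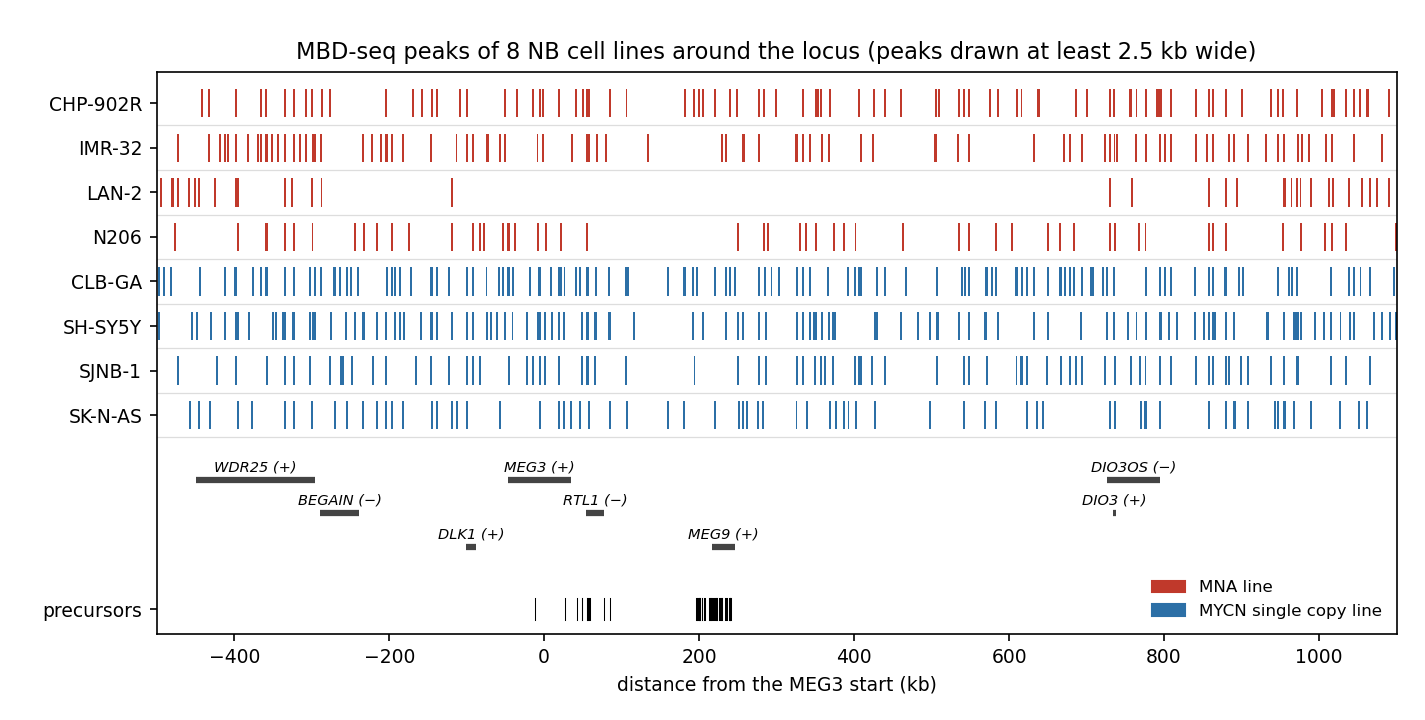
Position of the peaks of each line from *WDR25* to beyond *DIO3OS*, as distance in kb from the *MEG3* start, with precursors as ticks and 8 genes as bars with their strand. The row of LAN-2 has no peak from just upstream of *DLK1* into *DIO3OS*, a stretch in which the other rows hold 30 to 70 peaks.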

How the data were processed

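The MBD-seq samples were 8 NB cell lines, 1 each, in 2 groups of 4 by the *MYCN* status in the labels. Mapping on GRCh37 was by Bowtie 0.12.7 and peak calling by MACS, which the authors ran per line. The options of the peak calling and an input control are not given in the sources used here. The deposited score of a peak comes from its p-value, with 50 as the lowest value, and grows with depth. Ranks and medians of the score were taken within a list. The minimum score, where set, was the same for every list, and the highest score was taken over all lists. Both can therefore differ between lines through depth alone. Depth per line is unknown from the lists. Peaks were intersected with GENCODE release 44 in GRCh37 coordinates by at least 1 bp, with Python 3.11.15, numpy 2.4.6, scipy 1.17.1, numba 0.67.0 and matplotlib 3.10.9. Covered length was taken over bases other than N. CpG islands were stretches of at least 200 bp with GC of at least 50% and observed over expected CpG of at least 0.6. Mature sequences came from RefSeq (GRCh38.p14). The 46 hairpins it lists for these genes were all found on the plus strand of GRCh37 within 200 bp of the annotated place, whereas the annotation has *MIR380* and *MIR382* on the minus strand. *MIR381HG* was listed as a neighbour and not analysed here.

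Groups were compared by two-sided exact permutation tests over lines, lines with themselves by two-sided exact sign-flip permutation tests, and genes by two-sided Fisher's exact test with Benjamini-Hochberg adjustment. The step that finds separating genes was tested on simulated data with 3049 miRNA genes, and 200 of 200 planted genes were recovered. The planted genes separated the groups completely by construction. Their recovery therefore checks the code only and says nothing about missed peaks. The named genes are those with a precursor peak in at least 4 lines, the 10 with a window peak in most lines, up to 5 of those with none, those with at least 3 lines of one group and none of the other, and 29 genes of the cluster listed by name. The remaining genes named were chosen after their values were seen. The genes and lists were chosen with earlier results of these data known. Alternatives were a minimum score of 100, equal list lengths, the peak midpoint, a window to 500 bp downstream, the precursor only, merged regions, weighting by CpG content, autosomes, 50 kb flanks and each line left out. The strand of *MIR380* and *MIR382*, cover relative to chromosome 14 and the chromosome 19 cluster were added after seeing the data. Read counts were not analysed here.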

Additional observations from a re-analysis of the deposited data

Results flagged for a closer look

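The longest stretch without a peak that touched the locus was 848.49 kb in LAN-2, far from the 3 other MNA lines at 75.5 kb (CHP-902R), 94.9 kb (IMR-32) and 194 kb (N206). The gap between LAN-2 and N206 made up 0.846 of the range of the group, over the critical value of Dixon's test for 4 samples. This was 1 of 12 groups examined, and chance alone flags about 1 in 20. The cause was not tested.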

How the results depend on the processing

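No paired analysis was possible because the lines of the 2 *MYCN* groups share no replicate numbers in the labels. The difference in genes with a window peak (-3) reversed to 0.5 without LAN-2 and ran from -8.5 (without CHP-902R) to 0.5 over the lines left out, and was -7.25 with equal list lengths. The difference in covered length ran from -3.25 to -1.36 percentage points over the lines left out, the latter without LAN-2, and passed 0.05 with equal list lengths (-2.84). Divided by cover of the rest of chromosome 14 it was a difference of -2.07 in that ratio (exact permutation test, p = 0.0571). The difference between the 53 genes and other miRNA genes passed 0.05 for precursors only (8.00), against the chromosome 19 cluster (20.6) and without LAN-2 (13.9), and ran from 6.31 to 13.9 over the lines left out. It fell to 0.400 with scores of at least 100 and to 2.41 with weighting by CpG content, neither past 0.05. The difference between the locus and the rest of the chromosome no longer passed 0.05 with scores of at least 100 (0.284) or against all autosomes (2.10), and ran from 2.06 to 2.99 over the lines left out. The number of miRNA genes that separate the groups was 0 to 1 over the lines left out, with 1 without CLB-GA (*MIR337*) or SJNB-1 (*MIR770*). For neighbours and islands it was 1 with equal list lengths and 0 to 1 over the lines left out, with 1 without CHP-902R (*BEGAIN*). For *MIR337*, *MIR770* and *BEGAIN* the line left out was the only one outside the pattern, so these counts follow from the full lists. The share of all genes that separate in these settings is not given here. The causes were not tested. The lists give no depth, which limits what the absence of a peak shows.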
